A study of Homo sapiens with 24 samples.

Results

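The response of HepG2 cells to interferon gamma (IFNγ) in the presence of the BET inhibitor ABBV-744 at 500 nM was measured in 6 of the 24 libraries of the series. The libraries were assigned by their labels: 3 libraries of cells given both IFNγ and ABBV-744 at 500 nM were compared with 3 libraries of cells given ABBV-744 at 500 nM without IFNγ. HepG2 is an established line of human hepatocellular carcinoma, and ABBV-744 is an inhibitor that prefers the second bromodomain of the BET proteins. The series held 8 groups of 3 libraries, namely a DMSO control, 1 dose of the BET inhibitor ABBV-075 (50 nM), 2 doses of ABBV-744 (50 and 500 nM), IFNγ alone, and IFNγ combined with each inhibitor and dose. The dose of IFNγ and the time of exposure of the ABBV-744 and IFNγ groups were not given in the sources used here. For the groups with ABBV-744 or IFNγ, the sources used here do not say that the 3 libraries came from separate cultures, so the p-values below measure the spread between these libraries, which may be technical. Levels are given in CPM, the reads on a gene scaled to a fixed total of reads on genes per library, after TMM scaling over the 24 libraries. CPM are not divided by gene length and are compared between libraries only. Differences with IFNγ are log2 fold changes with their standard error (SE) from edgeR's quasi-likelihood test, with n = 3 libraries per group and p-values adjusted over all genes tested.

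IFNγ is a cytokine of T cells and natural killer cells. It binds the IFNGR1 and IFNGR2 receptor chains, whose JAK1 and JAK2 kinases activate STAT proteins that bind the GAS element of genes such as IRF1. IRF1 and complexes that hold STAT2 and IRF9 act on the ISRE element of later genes, which raise antigen presentation and antiviral defence. BET proteins bind acetylated histones and help RNA polymerase II to elongate, and their inhibitors displace them from chromatin.

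The promoters of the marker genes IRF1 and TAP1, together with those of PARP14 and GBP4, are shown because each holds the letters of the GAS element, of the ISRE element or, for PARP14, of both, and because these genes held some of the larger changes. The sequences came from RefSeq (GRCh38.p14), run 5′ to 3′ on the strand of the gene from 150 bases before the annotated start to 10 bases after it, and capitals mark a match to the GAS letters TTCNNNGAA or to the ISRE-like letters GAAANNGAAA on either strand. They lie at chr5:132490764-132490923 (minus strand) for IRF1, chr6:32853695-32853854 (minus strand) for TAP1, chr3:122680689-122680848 (plus strand) for PARP14 and chr1:89198933-89199092 (minus strand) for GBP4.
IRF1: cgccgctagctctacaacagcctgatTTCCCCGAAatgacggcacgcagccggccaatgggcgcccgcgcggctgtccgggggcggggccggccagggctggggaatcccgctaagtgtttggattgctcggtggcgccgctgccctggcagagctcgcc
TAP1: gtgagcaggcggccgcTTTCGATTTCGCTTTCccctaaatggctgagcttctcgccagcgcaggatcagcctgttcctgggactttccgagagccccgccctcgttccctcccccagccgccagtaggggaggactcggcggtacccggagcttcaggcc
PARP14: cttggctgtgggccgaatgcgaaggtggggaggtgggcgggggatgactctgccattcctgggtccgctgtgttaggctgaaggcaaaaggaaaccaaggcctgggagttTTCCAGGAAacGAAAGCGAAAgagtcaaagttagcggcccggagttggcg
GBP4: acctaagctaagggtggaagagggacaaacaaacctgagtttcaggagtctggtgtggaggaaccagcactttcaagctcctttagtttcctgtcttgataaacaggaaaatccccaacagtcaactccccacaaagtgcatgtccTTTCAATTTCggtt
IRF1 held 1 GAS match, whose first base lay at position -124 from the start. TAP1 held 2 overlapping ISRE-like matches on the opposite strand, with their first bases at -134 and -128. PARP14 held a GAS match at -40 followed by an ISRE-like match at -29, and GBP4 held 1 ISRE-like match on the opposite strand at -4.

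Over all 27305 RefSeq promoter windows of 300 bases, 7.88% held the GAS letters and 3.65% held the ISRE-like letters. The ISRE-like letters were found in 9 of 16 promoters of immunoproteasome and peptide loading genes and in 19 of 35 of antiviral genes. They were in 5 of 11 of interferon-linked PARP and ubiquitin-like genes and 5 of 11 of immune checkpoint and adhesion genes. Of guanylate-binding proteins and apolipoproteins L, 3 of 5 held them. Lower shares were 4 of 18 for cytokines, 2 of 11 each for death genes and interferon-linked enzymes, and 2 of 10 for the HLA class I list. The shares were 1 of 18 for the receptor, JAK and STAT list and 1 of 19 for complement genes. They were 0 of 5 for interferon regulatory factors and 0 of 10 for the HLA class II list. In the other lists they were 0 of 17 for proliferation genes, 0 of 19 for hepatocyte genes, 1 of 9 for the BET list and 2 of 7 for markers of other cells. The GAS letters were in 2 of 5 interferon regulatory factors, 5 of 19 complement genes, 7 of 35 antiviral genes and 3 of 18 cytokines. They were in 2 of 11 each of the checkpoint, death and enzyme lists, 1 of 5 of the guanylate-binding list and 1 of 11 of the PARP list. For the GAS letters the receptor list had 1 of 18, the HLA class II list 1 of 10, the HLA class I list 0 of 10 and the peptide loading list 0 of 16. Hepatocyte genes had 2 of 19, markers of other cells 1 of 7, proliferation genes 0 of 17 and the BET list 0 of 9. A match is a description of the letters and not a measured binding site.

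The 6 libraries held 2978982 to 3520912 reads on genes, which were 12.5% to 13.8% of their reads, and 64.0% to 68.1% of their reads aligned to several places and were not counted. Genes of near-identical families (HLA, OAS, IFIT, IFITM, guanylate-binding proteins, apolipoproteins L) may therefore have lost reads, and C4A and C4B were at 0 counts in these libraries. HEXIM1, a transcript that BET inhibitors are known to raise, averaged 53.8 CPM under DMSO, 89.4 under ABBV-744 at 500 nM and 71.5 with IFNγ added, and MYC averaged 108, 86.7 and 76.5 CPM. Of 16 markers of blood, endothelial and stromal cells, PTPRC, CD3E, ITGAM, CDH5, COL1A2 and COL3A1 were at 0 counts in the 6 libraries. Nearly all of the summed level of the list (1555 to 1677 CPM without IFNγ and 1553 to 1663 CPM with it) was LYZ, at 1507 to 1640 CPM in the 6 libraries and 1630 to 1756 CPM under DMSO. Of the 3 markers tested, LYZ was not called and CD68 and ACTA2 were lower with IFNγ, from 16.0 to 9.56 and from 22.7 to 12.95 CPM on average, and their part in the results was not tested. The call for CD68 was lost after a correction for GC content described below (-0.43), with DESeq2 and without replicate 2 of IFNγ with ABBV-744, and ACTA2 was still called after that correction (-0.65).

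IRF1, the transcription factor that starts the later wave of the response, stood at 13.3, 13.1 and 15.5 CPM in the 3 libraries with ABBV-744 alone and at 196, 199 and 226 CPM in the 3 libraries with IFNγ added. The groups did not overlap, and the lowest library with IFNγ was far above the highest without it. IRF1 rose by a log2 fold change of 3.87 ± 0.14 (SE, n = 3, adjusted p = 1e-14). TAP1, a subunit of the transporter that carries peptides into the endoplasmic reticulum for HLA class I, stood at 56.9, 54.5 and 58.3 CPM without IFNγ and at 512, 491 and 532 CPM with it. Here too the groups were far apart, and TAP1 rose by 3.17 ± 0.11 (SE, n = 3, adjusted p = 4.1e-15). Both markers named for this response therefore moved in each of its libraries.

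**Figure D1:**
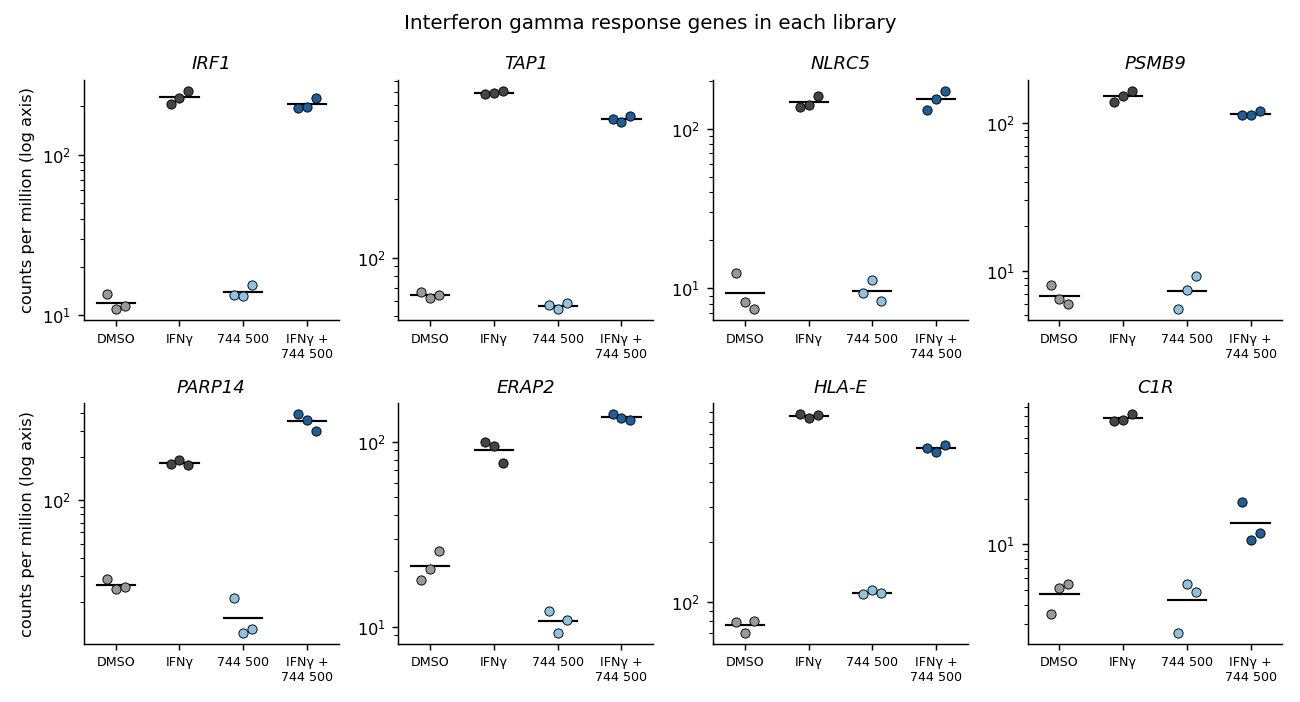
CPM on a log axis of IRF1, TAP1, NLRC5, PSMB9, PARP14, ERAP2, HLA-E and C1R in each library of the DMSO, IFNγ, ABBV-744 500 nM and IFNγ with ABBV-744 500 nM groups (labels leave out the prefix ABBV); points are libraries and lines are group means of 3. The 3 libraries with IFNγ and the inhibitor sit above the 3 libraries with the inhibitor alone for all 8 genes, above IFNγ alone for PARP14 and ERAP2, and below it for TAP1, PSMB9, HLA-E and C1R.

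In all, 10996 genes were tested. At an adjusted p of at most 0.05, 2484 genes were higher with IFNγ (22.6% of those tested) and 2014 were lower (18.3%), and the 2 groups did not overlap for 51.3% of the genes. With the further cutoff of 1.5 on the log2 scale in either direction, 219 genes were higher (1.99%) and 11 were lower (0.1%). Most of the called genes thus moved by less than this cutoff. The count of 219 became 375 without replicate 1 of ABBV-744 alone, and the count of 2014 became 1279 without replicate 2 of IFNγ with ABBV-744. The count of 11 was 18 to 30 without any 1 of the libraries other than replicate 2 of ABBV-744 alone, where it was 9. Under DMSO, in 6 other libraries, IFNγ raised 310 genes (2.76% of 11217 tested) and lowered 78 (0.695%), of which 92 (0.82%) and 3 (0.0267%) passed the further cutoff.

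The excess of called genes moved with the GC content of the transcripts. In the quintile of genes with the lowest GC content (29.2% to 40.2%) the median log2 fold change with IFNγ was 0.72, and 1536 of 2168 genes were called higher and 21 lower. In the quintile with the highest GC content (57.4% to 86.4%) the median was -0.25, and 37 of 2167 genes were called higher and 546 lower. Under DMSO the same medians were -0.10 and 0.08. The libraries carried this difference as a whole: the median log2 CPM of the lowest GC quintile minus that of the highest was -0.70 to -0.05 (log2) in the 3 libraries with ABBV-744 alone and 0.55 to 0.92 in the 3 with IFNγ added, so the groups did not overlap. It was -0.35 to 0.12 in the 6 libraries of DMSO and IFNγ alone. A library effect on GC-rich and GC-poor transcripts and an effect of the treatment on such genes cannot be told apart in this design.

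After a smooth correction of each library for GC content, 1541 genes were higher (14% of 10996) and 1560 lower (14.2%), and 91 (0.828%) and 4 (0.0364%) passed the further cutoff. Of the 2484 genes called higher, 1131 were still called higher, and of the 219 past the further cutoff, 78 still passed it and 210 were still called higher. Of the 2014 genes called lower, 898 were still called lower. The median GC content was 39.2% for the 2484 genes and 38.6% for the 219 genes, against 47.5% for all genes tested. For genes called in the response whose log2 fold change is given, values after this correction are given below wherever it ended the call or moved the value by over 1.5 times. For genes not called they are given only in part.

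**Figure D2:**
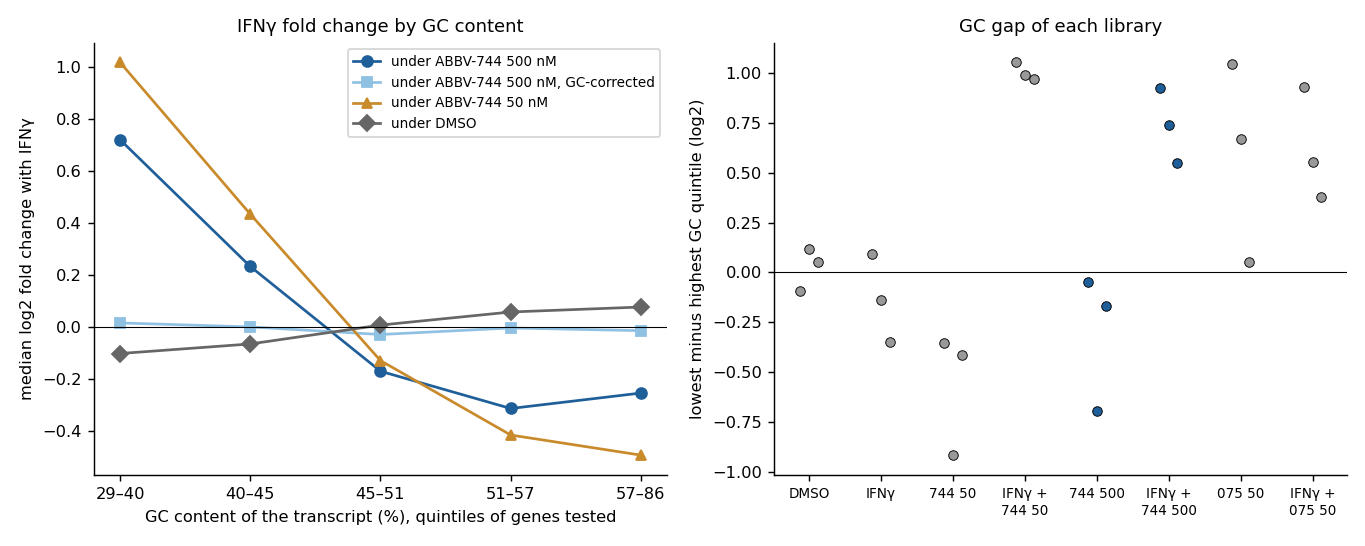
Left, median log2 fold change with IFNγ in quintiles of the tested genes by transcript GC content (%), under ABBV-744 500 nM with and without the GC correction, under ABBV-744 50 nM and under DMSO. Right, the median log2 CPM of the lowest GC quintile minus that of the highest in each of the 24 libraries, with the 6 libraries described here in blue; under ABBV-744 500 nM the median falls from 0.72 in the lowest quintile to -0.25 in the highest, and to values near 0 after the correction.

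The genes that carry the signal itself rose in part. Of 17 tested genes of the receptor, JAK, STAT and inhibitor list, 8 were higher and 2 lower, with a median of 0.35 against -0.05 over all genes tested. After the GC correction 6 were higher and 1 lower, with a median of 0.04. Over all genes tested 22.6% were higher and 18.3% lower, and 14% and 14.2% after the correction. The counts of every list below stand beside these shares. STAT2, a subunit of the ISRE-binding complex, rose by 1.03 and the kinase gene JAK2 by 1.63 (0.84 after the GC correction). SOCS1, a feedback inhibitor of JAK kinases, rose by 0.84 from 13.1, 11.9 and 6.32 CPM to 17.4, 16.9 and 21.5 CPM, close to one another but without overlap. The receptor chain gene IFNGR2 fell by 0.43 and PTPN1, which encodes a phosphatase, fell by 0.54 (0.32 after the GC correction), and the call for IFNGR2 was lost after the GC correction (-0.19).

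Among the 5 tested interferon regulatory factors 3 were higher and none was lower. IRF9, the DNA-binding subunit of the ISRE complex, rose by 2.45 and IRF2, which binds the same element as IRF1, rose by 0.65 (not called without replicate 2 of IFNγ with ABBV-744). IRF3 and IRF5 had values of -0.24 and -0.27 and were not called.

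The antigen processing genes rose together. Of 17 tested members of the immunoproteasome and peptide loading list 13 were higher and 1 lower with a median of 1.17, and the same counts held after the GC correction. PSMB9, an immunoproteasome subunit, stood at 5.51, 7.37 and 9.20 CPM without IFNγ and at 113, 112 and 119 CPM with it. The groups were more than 10 times apart in their nearest libraries, and PSMB9 rose by 3.95 ± 0.17 (SE, n = 3, adjusted p = 1.1e-13). The other immunoproteasome subunits PSMB8 and PSMB10 rose by 2.68 and 2.03, the proteasome activator subunits PSME1 and PSME2 by 0.73 and 1.17, TAP2 by 2.26, and TAPBP, the tapasin of the loading complex, by 0.80. ERAP2, a peptidase that trims peptides in the endoplasmic reticulum, stood at 12.2, 9.29 and 10.9 CPM without IFNγ and at 140, 135 and 130 CPM with it. It rose by 3.63 ± 0.14 (SE, n = 3, adjusted p = 5.9e-14), and its relative ERAP1 rose by 1.34 (0.80 after the GC correction). CALR, a chaperone of the loading complex, went the other way, from 1530, 1733 and 1637 CPM to 1173, 1109 and 1172 CPM, and fell by 0.51 (0.20 after the GC correction, still called lower).

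HLA class I genes rose less evenly. Of 12 tested members of the class I list 6 were higher and 1 was lower, with a median of 0.42 (0.60 after the GC correction). HLA-E, which presents leader peptides to receptors of natural killer cells, stood at 109, 115 and 111 CPM without IFNγ and at 596, 564 and 613 CPM with it, with no overlap, and rose by 2.40 ± 0.10 (SE, n = 3, adjusted p = 7.4e-14). HLA-B and HLA-C, which encode classical class I heavy chains, rose by 1.03 and 0.33 (1.32 and 0.55 after the GC correction), and B2M, their light chain, rose by 1.41 (0.78 after the GC correction). NLRC5, the transactivator of class I genes, went from 9.29, 11.2 and 8.33 CPM to 131, 154 and 173 CPM, a rise of 3.99 ± 0.16 (SE, n = 3, adjusted p = 9e-14). MICA, a ligand of the activating receptor NKG2D, fell by 0.86 (0.54 after the GC correction). The class II side was scarcely measurable. CIITA, the class II transactivator, had 0 counts without IFNγ and 3 to 4 counts per library with it, the HLA-DR, HLA-DP and HLA-DQ genes were at 0 counts in the 6 libraries, and CD74, the invariant chain, rose by 0.39 (0.71 after the GC correction), a call lost without any 1 of 5 of the 6 libraries (all except replicate 1 of ABBV-744 alone).

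Of 14 guanylate-binding proteins and apolipoproteins L 9 were tested, and 5 of these had under 10 counts in each library without IFNγ. Such members passed the filter on low counts through the libraries with IFNγ and could be called only higher, so the 9 calls of a higher level and the median of 3.82 (3.43 with the 3 members at 0 counts set to their lower bounds) describe the tested members and support nothing further. GBP4, an interferon-induced GTPase, had 0 counts in each library without IFNγ and 8.87 to 17.0 CPM with it, which is at least 14.1-fold higher against a floor of 3 counts per library. GBP5 was at least 6.96-fold higher and APOL4 at least 6.49-fold higher on the same floor. GBP1 had 2 counts in all without IFNγ and 178 with it, a ratio of 92.9 (95% counting interval 25.3 to 773). Of the members with reads on both sides, GBP2 rose by 3.82 and APOL6 by 3.43. Such intervals cover counting error only.

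Of 36 tested antiviral genes 31 were higher and 0 lower, with a median of 1.38 (32 higher and a median of 1.48 after the GC correction), and 6 of the 36 had under 10 counts in each library without IFNγ. XAF1, a proapoptotic interferon-induced protein, stood at 1.45, 0.641 and 0.862 CPM without IFNγ and at 58.2, 49.7 and 55.6 CPM with it, and rose by 5.71 ± 0.26 (SE, n = 3, adjusted p = 4.5e-13). OAS2, which makes the activator of RNase L, had 1 count in all without IFNγ and 223 with it, a ratio of 233 (95% counting interval 41.3 to 9230). TRIM22, an antiviral ubiquitin ligase, had 3 and 226 counts, a ratio of 78.6 (26.6 to 384), and IFI27 had 2 and 79 counts, a ratio of 41.2 (11.04 to 346). IFIT3 rose by 4.36, IFIT1 by 2.81 and the RNA sensor gene DDX58 by 2.34. The 5 antiviral members not called were IFITM2 (-0.01), MX2 (0.19), BST2 (0.58), TRIM25 (0.09) and ZC3HAV1 (0.11). Outside the lists, EPSTI1 was at least 18.4-fold higher and DDX60, a helicase of the antiviral response, at least 7.998-fold higher against the floor of 3 counts per library.

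PARP14, a mono-ADP-ribosyltransferase, showed one of the larger changes at a moderate level. It stood at 21.2, 12.2 and 12.9 CPM without IFNγ and at 392, 359 and 303 CPM with it, and rose by 4.49 ± 0.16 (SE, n = 3, adjusted p = 1e-14). Of 13 tested members of the PARP and ubiquitin-like list 10 were higher and 0 lower with a median of 1.68. Of the 13, 1 had under 10 counts in each library without IFNγ. PARP9 and its partner DTX3L rose by 2.77 and 2.27, UBD (the ubiquitin-like protein FAT10) by 3.80, UBE2L6, the conjugating enzyme for ISG15, by 2.88 and ISG15 itself by 1.498. UBA7, the activating enzyme for ISG15, had a value of -0.43 and was not called. HERC6, a ligase of the HERC family, had 2 counts in all without IFNγ and 80 with it, a ratio of 41.7 (95% counting interval 11.2 to 351).

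**Figure D3:**
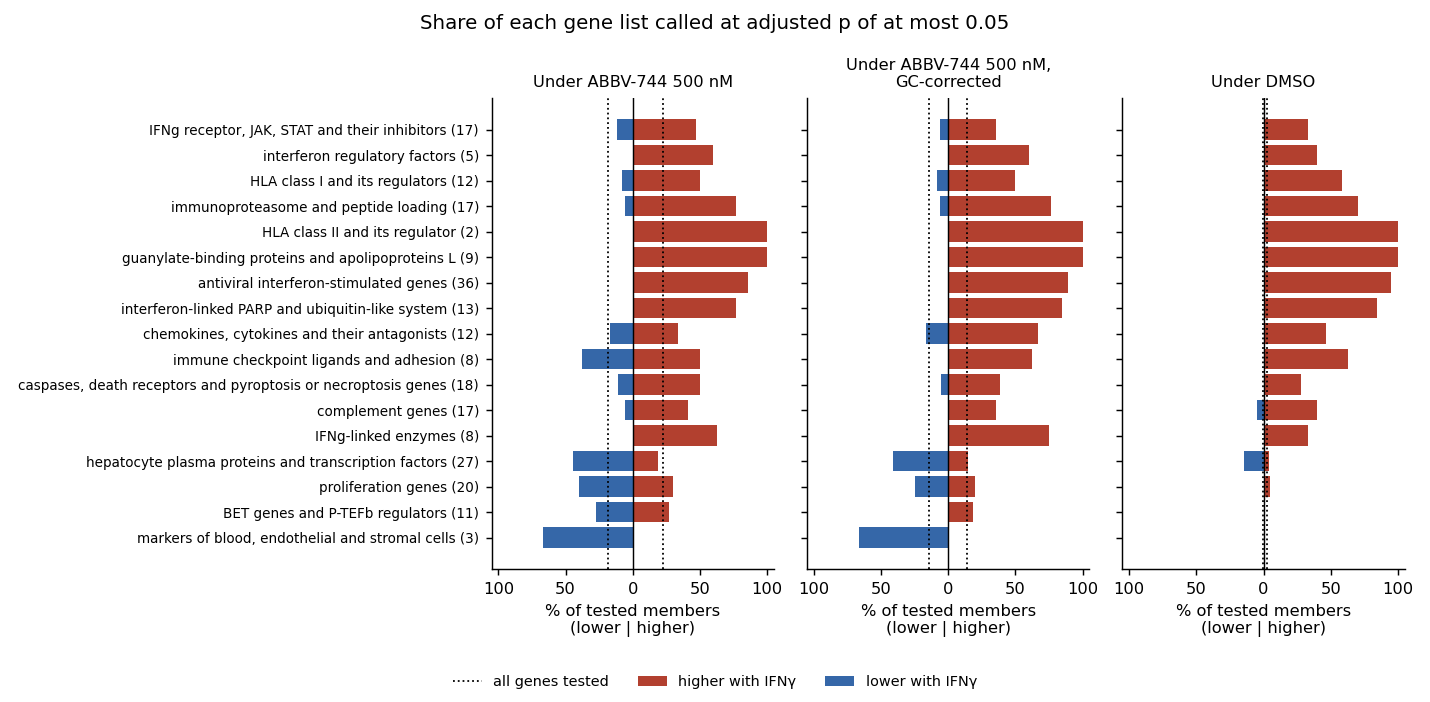
Share of the tested members of 17 gene lists called higher (right, red) or lower (left, blue) with IFNγ at an adjusted p of at most 0.05, under ABBV-744 500 nM, the same after GC correction, and under DMSO; numbers after the names are the members tested under ABBV-744 500 nM, and dotted lines are the shares over all genes tested. The antiviral and PARP lists lie beyond the dotted lines in the 3 panels, while the hepatocyte list reaches 12 of 27 members lower under ABBV-744 500 nM and 4 of 27 under DMSO.

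Of 12 tested chemokines, cytokines and antagonists 4 were higher and 2 lower (8 and 2 after the GC correction), against 22.6% and 18.3% of all genes tested (14% and 14.2% after the correction). Of the 12, 2 had under 10 counts in each library without IFNγ, namely IL7 and IL15RA, and could be called only higher. IL7 had 3, 4 and 5 counts without IFNγ and 13, 15 and 18 with it, and rose by 1.96 (1.30 after the GC correction). TNFSF10, the death ligand TRAIL, rose by 2.41. IL15RA, a receptor chain that presents IL15, had 4 counts in all without IFNγ and 54 with it. This was a ratio of 14.1 (95% counting interval 5.19 to 53.6). IL15 itself had 0 counts without IFNγ and was at least 3.83-fold higher with it. IL1RN, the interleukin-1 receptor antagonist, fell by 1.02. IL18BP, which binds and blocks interleukin-18, stood at 6.67, 8.65 and 4.31 CPM without IFNγ and at 15.7, 10.4 and 8.90 CPM with it, and rose by 0.82 ± 0.28 (SE, n = 3, adjusted p = 0.024). Its lowest library with IFNγ was barely above the highest without it. CD274, the ligand PD-L1, had 1 count in all without IFNγ and 22 with it, a ratio of 23.0 (95% counting interval 3.71 to 947). Of 8 tested checkpoint and adhesion genes 4 were higher, among them TNFRSF14 (2.04), CD47 (2.07, or 1.42 after the GC correction) and ICAM1 (0.67), and 3 were lower. All 3 of those calls of a lower level were lost after the GC correction, for example that of CD276 (-0.57 before and -0.30 after it).

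Death genes were higher in 9 of 18 cases and lower in 2 (7 and 1 after the GC correction), and 1 of the 18 had under 10 counts in each library without IFNγ. For this list and the next, the shares over all genes tested were 22.6% higher and 18.3% lower (14% and 14.2% after the correction). CASP1, the inflammasome caspase, had 3 and 58 counts, a ratio of 20.2 (95% counting interval 6.57 to 101), and MLKL, the effector of necroptosis, rose by 1.37. CASP4, a caspase that senses lipopolysaccharide, rose by 1.32 (0.65 after the GC correction). Of 17 tested complement genes 7 were higher and 1 lower with a median of 0.06, and 1 of the 17 had under 10 counts in each library without IFNγ. SERPING1, the inhibitor of C1, had 3 and 64 counts, a ratio of 22.3 (95% counting interval 7.28 to 111). C1R, a protease of the first complement component, stood at 2.61, 5.45 and 4.89 CPM without IFNγ and at 19.1, 10.6 and 11.97 CPM with it, and rose by 1.67 ± 0.30 (SE, n = 3, adjusted p = 0.00014). C3, the central complement protein, fell by 0.52 (0.19 and not called after the GC correction). Of 8 tested interferon-linked enzymes and adaptors 5 were higher and 0 lower. Of the 8, 1 (NMI, with 6, 3 and 6 counts) had under 10 counts in each library without IFNγ and could be called only higher. WARS, the tryptophanyl-tRNA synthetase, went from 53.7, 49.7 and 46.6 CPM to 866, 634 and 623 CPM, a rise of 3.81 ± 0.13 (SE, n = 3, adjusted p = 4.3e-15). NMI, a partner of STAT proteins, rose by 4.71, and KYNU, an enzyme of tryptophan breakdown, rose by 1.26 (0.44 and not called after the GC correction).

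Several hepatocyte genes were lower with IFNγ. Of 27 tested plasma proteins and liver transcription factors 12 were lower and 5 higher with a median of -0.24, against 18.3% and 22.6% of all genes tested. After the GC correction 11 were lower and 4 higher with a median of -0.15. AHSG, the carrier protein fetuin-A, stood at 1980, 2208 and 1923 CPM without IFNγ and at 935, 843 and 836 CPM with it, with no overlap, and fell by 1.23 (SE 0.09, n = 3, adjusted p = 2.2e-09). SERPINA1 (alpha-1-antitrypsin) fell by 0.79, from 5937, 6797 and 6730 CPM to 3668, 3811 and 3769 CPM (fell by 0.48 after the GC correction). RBP4, the retinol carrier, fell by 0.89 (0.57 after the GC correction) and FGA, a fibrinogen chain, by 0.78. In the other direction AFP rose by 0.95, from 960, 706 and 791 CPM to 1809, 1572 and 1393 CPM, but by 0.33 after the GC correction, and APOB rose by 0.64. ALB, HNF4A and CEBPA had values of 0.21, -0.24 and -0.24 and were not called.

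Beyond the lists, the 10 genes with the largest falls under the rule for named genes were VTN, NYNRIN, ITIH4, ESAM, GLUL, CLDN6, PTGDR2, PORCN, PGC and GPRC5A, between -2.08 and -1.54. GLUL, glutamine synthetase, was the most abundant of them. It stood at 613, 630 and 624 CPM without IFNγ and at 211, 192 and 179 CPM with it. The libraries within each group were close, the groups were far apart, and GLUL fell by 1.69 (SE 0.09, n = 3, adjusted p = 1.8e-11), and by 1.71 after the GC correction. VTN, the plasma adhesion protein vitronectin, went from 91.4, 102 and 84.5 CPM to 27.4, 18.3 and 20.6 CPM and fell by 2.08 (SE 0.15, n = 3, adjusted p = 1.1e-09). ITIH4, another secreted liver protein, fell by 1.89 and CLDN6, a tight junction protein, by 1.65. The 3 libraries with IFNγ for GPRC5A were at 2.34, 0.592 and 0.614 CPM, and its call was lost with DESeq2 and without either replicate 2 or 3 of them.

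Of 20 tested proliferation genes 6 were higher and 8 lower, and after the GC correction 4 and 5, with medians of -0.22 and -0.05. Over all genes tested the shares were 22.6% and 18.3%, and 14% and 14.2% after the correction, so calls in both directions were also common outside the list. TOP2A (topoisomerase II alpha) rose by 1.58, from 330, 194 and 270 CPM to 867, 822 and 701 CPM, and by 0.97 after the GC correction. PLK1, a mitotic kinase, fell by 1.04, from 112, 159 and 136 CPM to 61.8, 70.4 and 66.0 CPM. Of 11 BET genes and regulators of P-TEFb, the kinase that releases paused polymerase, 3 were higher and 3 lower, and after the GC correction 2 and 0, which is near the same shares over all genes and no result about the list. CCNT2, a cyclin subunit of P-TEFb, rose by 1.14 (0.37 after the GC correction), and HEXIM1, the inhibitor of P-TEFb, fell by 0.33, a call that was lost with the GC correction (-0.14), with DESeq2, with library size alone as the scaling and without any 1 of 4 of the 6 libraries. MYC had a value of -0.19 (0.02 after the GC correction) and was not called (adjusted p = 0.19).

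The response was then compared with that under DMSO, in which 3 libraries of IFNγ alone and 3 of DMSO share no library with the 6 described here. Of the 92 genes raised by at least 1.5 (log2) under DMSO, 84 were tested under ABBV-744 at 500 nM. Of these, 82 (97.6%) were also called higher, against 22.6% of all genes tested, with medians of 2.73 under the inhibitor and 2.65 under DMSO. After the GC correction 83 of the 84 (98.8%) were called higher, against 14% of all genes tested. Some of the 84, for example EPSTI1, GBP4 and GBP5 at 0 counts with ABBV-744 alone, passed the filter through the libraries with IFNγ. Such genes could be called only higher. Of the 219 genes raised by at least 1.5 under the inhibitor, 211 were tested under DMSO and 80 (37.9%) were called higher there. Of all 2484 genes called higher under the inhibitor, 2460 were tested under DMSO and 168 (6.83%) were called higher, against 2.76% of all genes tested there. Of the 302 tested among those called higher under DMSO, the same 168 were 55.6%. After the GC correction of the response under the inhibitor, 215 of the 302 (71.2%) were called higher. The tested genes of the strong response under DMSO were thus largely called in both, within the limit given for genes at low counts. Most genes called higher under the inhibitor were not called under DMSO, but only 1131 of these 2484 calls were kept after the GC correction.

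The difference between the 2 responses was tested as an interaction over the 12 libraries. Here and below, a larger or smaller response means a higher or lower signed log2 fold change. A gene that fell with IFNγ only under the inhibitor thus counts as smaller. Of 11428 genes tested, 2115 had a larger log2 response under ABBV-744 at 500 nM (18.5%) and 1712 a smaller one (15%). With library size alone as the scaling the split was 2292 and 1095, and after the GC correction 862 (7.54%) and 1052 (9.21%). Of 181 tested members of the 13 interferon-related lists, 29 had a larger and 41 a smaller response, with a median difference of -0.12 against -0.09 over all genes. After the GC correction 10 of the 29 and 17 of the 41 were called in the same direction, and the median difference of the members was -0.02.

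IRF1 and TAP1 were not among them. The difference was -0.38 ± 0.20 (SE, adjusted p = 0.14) for IRF1 and -0.27 ± 0.12 (SE, adjusted p = 0.082) for TAP1. After the GC correction it was -0.04 (adjusted p = 0.92) for IRF1 and 0.11 (adjusted p = 0.56) for TAP1. NLRC5 had a difference of 0.01 ± 0.26. The antiviral genes had medians of 1.38 under the inhibitor (36 members tested) and 1.51 under DMSO (38 tested), so the 2 sets of members differ.

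PARP14 had a larger response under the inhibitor. It stood at 28.5, 24.3 and 25.1 CPM under DMSO and at 179, 191 and 176 CPM with IFNγ alone, a rise of 2.82 that was smaller by 1.68 ± 0.20 (SE, adjusted p = 1.8e-07, 1.36 after the GC correction) than the rise of 4.49 under the inhibitor. Both sides contributed to it, since its levels under ABBV-744 alone were below every DMSO library and its levels with IFNγ and ABBV-744 were above every library of IFNγ alone. The same order held for ERAP2, at 17.8, 20.5 and 25.8 CPM under DMSO and 99.4, 94.9 and 76.4 CPM with IFNγ alone, with a difference of 1.55 ± 0.21 (SE, adjusted p = 1.2e-06, 1.01 after the GC correction). XAF1 had a difference of 2.14 ± 0.52, NMI of 1.55 ± 0.42 and DDX58 of 1.47 ± 0.27 (0.86 after the GC correction), each called with and without the GC correction. Larger differences that the correction ended included those of JAK2 (0.94, a call also lost without any 1 of 7 of the 12 libraries), IL7 (2.34) and KYNU (1.38).

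HLA-E and C1R had smaller responses under the inhibitor. HLA-E went from 79.3, 70.0 and 80.2 CPM under DMSO to 876, 844 and 866 CPM with IFNγ alone, a rise of 3.501, and the difference to the rise of 2.40 under the inhibitor was -1.10 ± 0.12 (SE, adjusted p = 3.3e-08, -0.72 after the GC correction). Without IFNγ its libraries under ABBV-744 were above those under DMSO, and with IFNγ they were below those of IFNγ alone. C1R went from 3.46, 5.13 and 5.49 CPM to 65.5, 65.8 and 72.0 CPM under DMSO, and its difference was -2.16 ± 0.38 (SE, adjusted p = 4.7e-05, -1.78 after the GC correction). The baselines of C1R overlapped, so the gap lay in the libraries with IFNγ. IL18BP went from 4.26, 3.79 and 5.97 CPM to 26.8, 37.6 and 31.1 CPM under DMSO, and its difference was -1.94 ± 0.38 (SE, adjusted p = 0.00017). HLA-C (-0.76), STAT2 (-0.73), STAT3 (-0.70), ICAM1 (-0.89), IFI6 (-1.35), C1S (-1.02) and C3 (-1.01, with a fall under the inhibitor) also had smaller signed responses. The GC correction left them called at -0.45, -0.43, -0.40, -0.49, -0.97, -0.92 and -0.61 in the same order. The smaller responses of HLA-B (-0.44, also lost without replicate 2 of DMSO, of ABBV-744 alone or of IFNγ with ABBV-744), IRF9 (-0.80), UBE2L6 (-0.76) and WARS (-0.61) were no longer called after it.

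**Figure D4:**
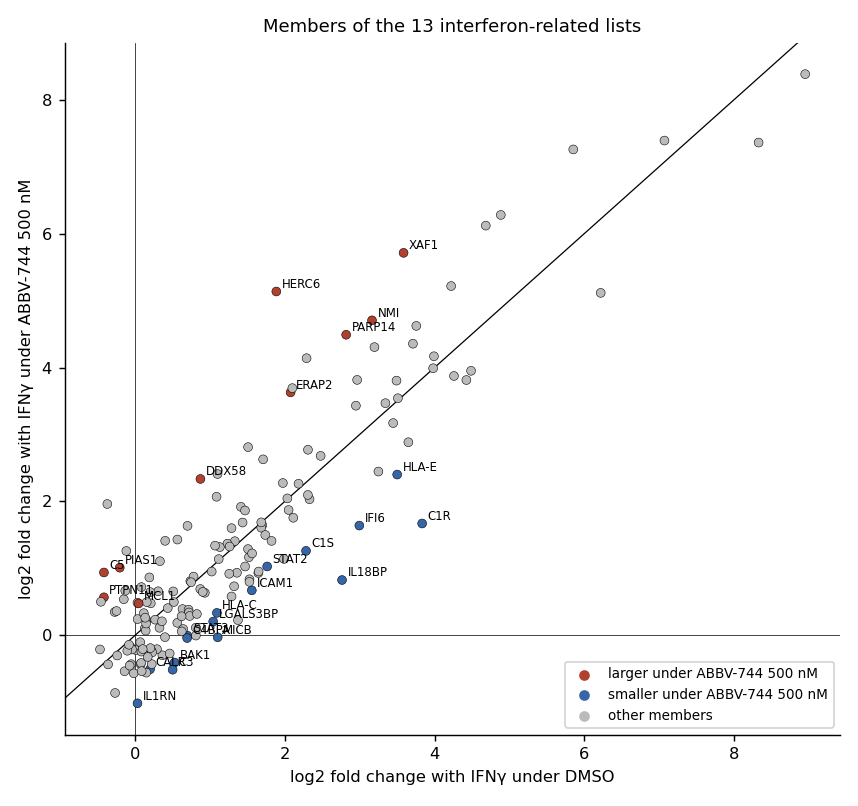
Log2 fold change with IFNγ under DMSO (x axis) and under ABBV-744 500 nM (y axis) for 173 members of the 13 interferon-related lists tested in both; the diagonal marks equal responses, and the 26 named points had a difference called in the same direction with and without the GC correction. XAF1, HERC6, NMI, PARP14 and ERAP2 lie above the diagonal and HLA-E, C1R, IL18BP and IFI6 below it.

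GLUL, VTN and AHSG did not fall with IFNγ under DMSO by the test used, with log2 fold changes of -0.10, -0.23 and 0.16. GLUL was at 581, 590 and 601 CPM under DMSO and at 551, 560 and 533 CPM with IFNγ alone. Its difference between the responses was -1.58 ± 0.11 (SE, adjusted p = 2.5e-11, -1.64 after the GC correction). That of VTN was -1.84 ± 0.18 (-1.48 after the GC correction) and that of AHSG -1.39 ± 0.11 (-1.01 after it). The 5 largest positive differences under the rule for named genes were those of HERC6 (3.27), ZNF230 (2.88), ZBTB41 (2.52, or 1.35 after the GC correction), BRCA2 (2.46) and DNTTIP2 (2.43). HERC6 and ZNF230 had few counts, with 2 in all for HERC6 with ABBV-744 alone. ZNF230 had 4, 27 and 24 counts under DMSO and 5, 5 and 6 with IFNγ alone, and this response was not tested. Under the inhibitor ZNF230 rose by 1.35 (0.73 and not called after the GC correction). BRCA2, a homologous recombination gene, was at 45.0, 23.1 and 40.8 CPM with ABBV-744 alone and at 195, 189 and 158 CPM with IFNγ added, with a transcript GC content of 36.4% and a difference of 1.55 after the GC correction. The 5 largest negative differences were those of IFITM1 (-4.18), CYP8B1 (-3.71), SULT1C4 (-3.67), PRF1 (-3.24) and PDGFB (-3.06), all with few counts. IFITM1 had 4 counts in all without IFNγ and 22 with it under the inhibitor, a ratio of 5.74 (95% counting interval 1.95 to 22.9).

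By the interaction test, the dose of the inhibitor made little measurable difference to the response of single genes. The same comparison at 50 nM used 6 libraries, which also share no library with those at 500 nM. By edgeR's quasi-likelihood test, 3 of 11343 genes had a higher signed log2 fold change with IFNγ at 500 nM (0.0264%) and 0 a lower one. DESeq2 likewise gave 3 and 0, and 1318 genes (11.6%) had an unadjusted p under 0.05 with edgeR. The difference was 0.19 ± 0.19 (SE) for IRF1, 0.30 ± 0.14 for TAP1, 0.09 ± 0.27 for PARP14, -0.11 ± 0.13 for HLA-E and 0.04 ± 0.12 for GLUL. None of these was called, and their standard errors reached 0.27. The 3 genes were PA2G4 (0.92), PXDC1 (1.26) and RNA45S5 (0.72). PA2G4 fell by 0.45 at 500 nM and by 1.36 at 50 nM, so it moved less at 500 nM. PXDC1 had values of -0.25 (not called) and -1.51, and RNA45S5 of 0.44 and -0.28, in the same order. After the GC correction the values at 500 nM were -0.29 for PA2G4 and 0.06 (not called) for PXDC1. The count of higher signed values was 82, with 31 lower, without replicate 2 of ABBV-744 at 500 nM alone. It was 0 without replicate 3 of that group, without replicate 2 or 3 of IFNγ with ABBV-744 at 500 nM, without replicate 3 of ABBV-744 at 50 nM, or without replicate 2 of IFNγ with ABBV-744 at 50 nM, and 1 without replicate 1 of ABBV-744 at 500 nM or replicate 1 or 3 of IFNγ with ABBV-744 at 50 nM. The response at 50 nM moved with GC content in the same direction but more steeply. Its medians were 1.02 in the lowest GC quintile and -0.49 in the highest, against 0.72 and -0.25 at 500 nM. In the lowest quintile 1820 genes were called higher and 17 lower at 50 nM, against 1536 and 21 at 500 nM. In the highest quintile 30 were called higher and 1325 lower at 50 nM, against 37 and 546 at 500 nM.

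The other BET inhibitor of the series, ABBV-075, was used at 50 nM, so its values are given beside those of ABBV-744 at 500 nM without a comparison. IFNγ called 111 genes higher (1.01% of 10951) and 4 lower (0.0365%) under ABBV-075, where the libraries within a group differed more in GC content (0.05 to 1.05 for ABBV-075 alone on the scale above). The log2 fold change was 4.04 under ABBV-075 and 3.87 under ABBV-744 for IRF1, 3.77 and 3.17 for TAP1, and 4.08 and 4.49 for PARP14. In the same order it was 2.98 and 2.40 for HLA-E, 1.83 and 1.67 for C1R, and -0.62 and -1.69 for GLUL. GLUL was not called under ABBV-075, where its libraries without IFNγ were at 241, 357 and 531 CPM.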

How the data were processed

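RNA of HepG2 cells was depleted of ribosomal RNA and made into directional libraries (described by the authors for the DMSO and ABBV-075 libraries). The submitters' processing notes name CASAVA 1.8.2, Trimmomatic 0.33, STAR 2.7.1, DESeq2 and hg38. The deposited values were raw counts of uniquely aligned reads per gene symbol, 1 file per library, not normalized by the authors, and the annotation used for counting was not given in the sources used here. Column 4, the strand of the gene, was used. The 6 libraries held 2978982 to 3520912 counts on genes, which limits genes of a few CPM. Rows for unmapped, multimapping, ambiguous and unassigned reads were left out (multimapping reads made 64.0% to 68.1% of reads, reads outside genes 15.6% to 19.1%).

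Counts were tested with edgeR 4.0.16 in R 4.3.3 (filterByExpr, TMM, quasi-likelihood test, Benjamini-Hochberg adjustment, adjusted p of at most 0.05). The response used its own 6 libraries, and differences from DMSO and from 50 nM were interaction terms over 12 libraries. Scripts were tested on simulated data. GC content was that of the longest GENCODE transcript (98.5% of tested genes had one), and the correction subtracted a lowess curve (span 0.3) per library. Alternatives were DESeq2 1.42.0, other scalings and filters, both strands together, the 10 most abundant genes removed, the GC correction, a replicate block, and each library left out.

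Named genes were IRF1, TAP1, HEXIM1 and MYC, the 10 largest rises and falls past both thresholds with a mean log2 CPM (prior count 2) of at least 1 and no overlap, up to 4 called members of each list and members whose role was needed, and the 5 largest differences from DMSO in each direction. EPSTI1 and DDX60 came in by this rule, CALR, C3, MICA and the 5 uncalled antiviral genes as members with a role. Values of some single list members are not reported here. Labels alone assigned libraries to groups, but the comparison that forms the members, the named genes and the 17 gene lists were chosen with earlier results of these data known.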

Additional observations from a re-analysis of the deposited data

Results flagged for a closer look

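The response to IFNγ differed between ABBV-744 at 500 nM and DMSO, by the interaction test of edgeR over 12 libraries, for the following named genes and for the members of the 13 interferon-related lists whose difference was also called after the GC correction. Larger log2 responses under the inhibitor were those of HERC6 (difference 3.27), ZNF230 (2.88), ZBTB41 (2.52), BRCA2 (2.46), DNTTIP2 (2.43), XAF1 (2.14), PARP14 (1.68), ERAP2 (1.55), NMI (1.55), DDX58 (1.47), C5 (1.36), PIAS1 (1.22), PTPN11 (0.99) and MCL1 (0.43).

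Smaller responses were those of IFITM1 (-4.18), CYP8B1 (-3.71), SULT1C4 (-3.67), PRF1 (-3.24), PDGFB (-3.06), C1R (-2.16), IL18BP (-1.94), IFI6 (-1.35), MICB (-1.13), HLA-E (-1.10), IL1RN (-1.05), C1S (-1.02), C3 (-1.01), BAK1 (-0.93), ICAM1 (-0.89), LGALS3BP (-0.84), HLA-C (-0.76), STAT2 (-0.73), C4BPA (-0.73), CALR (-0.71) and STAT3 (-0.70). Smaller refers to the signed log2 fold change and can stand for a fall under the inhibitor. IL1RN fell by 1.02 under the inhibitor and had a value of 0.03 under DMSO, and CALR and C3 also fell under the inhibitor. Others, such as C1R and HLA-E, rose less under it. IFITM1 and CYP8B1 lost their calls without replicate 3 of ABBV-744 alone, and CYP8B1 and SULT1C4 lost theirs with DESeq2.

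Between 500 nM and 50 nM of ABBV-744 the response differed for PA2G4 (0.92), RNA45S5 (0.72) and PXDC1 (1.26). Their signed log2 fold change was higher at 500 nM, which for PA2G4 and PXDC1 was a smaller negative value. PA2G4 was at 205, 232 and 233 CPM at 50 nM alone and at 90.4, 77.1 and 93.0 CPM with IFNγ added, against 123, 129 and 123 CPM and 88.6, 90.2 and 96.1 CPM at 500 nM. Each of these 3 calls was lost when 1 of several libraries was left out.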

How the results depend on the processing

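The counts of the response moved by over 1.5 times under these alternatives. With the GC correction 1541 genes were higher (1531 with the replicate block as well) and 91 passed the cutoff of 1.5 (93). DESeq2 called 1218 genes lower. The 11 genes lower by at least 1.5 became 38 with no filter on low counts, 4 with at least 10 counts in every library, 24 with 24 libraries in the fit, 4 with the GC correction and 5 with the block as well. For the difference from DMSO, the GC correction gave 862 larger and 1052 smaller (827 and 1000 with the block), and library size alone 1095 smaller, with 67.7% of calls larger against 55.3% with TMM and 45.0% after the GC correction. For the difference between doses the counts were 59 and 28 with no filter, 17 and 2 with the GC correction, 44 and 2 with the block as well. The cause of these shifts was not tested, except that the correction removes by construction what moves with GC content.

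Leaving out 1 library each gave 2064 to 2557 genes higher, 1279 to 1958 lower, 169 to 375 higher by at least 1.5 and 9 to 30 lower by at least 1.5. It gave 1775 to 2308 larger and 1133 to 1767 smaller responses than under DMSO (1133 without replicate 2 of DMSO), and 0 to 82 larger and 0 to 31 smaller than at 50 nM. The difference from DMSO turned negative with the GC correction, and also with the block, for B2M (-0.64 in both), CASP4 (-0.57 and -0.58) and NAMPT (-0.058 and -0.068). Counted as combinations of a named gene and an alternative, 1331 values of the response kept their direction and side of the threshold and 34, from 10 genes, lost the call. For the difference from DMSO 1866 kept both, 85 (21 genes) lost the call, 10 gained one and 6 turned, and for the difference between doses 1852 kept both, 23 lost the call and 3 gained one.

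Deviations of libraries with equal replicate numbers correlated with r = 0.18, -0.02 and -0.10 across genes. Those with unequal numbers lay between -0.24 and 0.27. With 3 libraries per group these values cannot decide whether the numbers pair the libraries. With the replicate block 2526 genes were higher and 2035 lower, 2106 and 1631 differed from DMSO, and 7 and 1 differed between doses. At 2978982 to 3520912 counts on genes, CIITA, CD274 and the HLA-DR, HLA-DP and HLA-DQ genes did not pass the filter on low counts and were not tested.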
